A study of Arabidopsis thaliana with 12 samples.

Results

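In each of the 4 groups of an RNA-seq study of Arabidopsis thaliana shoots, 1 library of 3 had a far higher level of TOC1 (AT5G61380), a repressor at the core of the plant circadian clock, than the other 2. These 4 libraries of 12, described here against the other 8, are named by genotype, iron supply and replicate number as wild type sufficient 3, wild type deficient 2, clf sufficient 3 and clf deficient 3, and their values are always given in that order. They were chosen on the measured value alone: TOC1 stood at 59.6, 33.2, 34.9 and 30.2 CPM (counts scaled to the size of each library) in them, and the next highest library of each group, just outside the choice, stood at 11.8, 11.5, 13.0 and 10.6 CPM. The other 8 libraries ranged from 9.44 to 13.0 CPM. Because TOC1 chose the libraries, every difference between the 4 and the 8 below is a description and carries no test. The SE printed with a difference takes the choice as given, so it is not a test either.

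The plants were the Columbia wild type (Col) and clf, a mutant in CURLY LEAF, which encodes the histone H3 lysine 27 methyltransferase of Polycomb repressive complex 2. The study asked how this complex bears on the genes of iron homeostasis. Seedlings of all groups grew on B5 medium for 12 days and were then moved for 3 days to iron-sufficient or iron-deficient medium, at 22 °C under 16 h of light and 8 h of dark. Each group has 3 libraries from a stranded mRNA kit. The clf allele, the hour of harvest and any separate plates or days behind the replicates are not stated in the sources used here. The p-values below therefore measure only how these libraries spread, and that spread may be technical. The source label calls the tissue shoot and another label calls it root.

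The plant clock is a loop of genes that repress each other in turn through the day. CCA1 and LHY, a pair of MYB proteins, are most abundant around dawn and repress the genes of the afternoon and evening through a promoter sequence called the evening element. The pseudo-response regulators PRR9, PRR7, PRR5 and TOC1 follow in that order from morning to evening and repress CCA1 and LHY. GI and the F-box protein FKF1 accumulate late in the day and act in day-length sensing and protein turnover, and ELF3, ELF4 and LUX form the evening complex, which represses genes at night. Many outputs follow the loop, among them starch turnover, cold tolerance, growth and light harvesting.

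Total counts were 17183333 to 29400813 in the 4 libraries and 16092041 to 28350032 in the other 8. Ribosomal RNA genes took 0.205% to 0.546% of counts in the 4 and 0.0155% to 0.936% in the 8, and the 10 most abundant genes 11.3% to 16.7% and 9.72% to 15.4%. Plastid and mitochondrial genes took 0.0469% to 0.0955% of counts in the 4 and 0.0914% to 0.230% in the 8, and whether this has a part in the differences below was not tested. CLF itself stood at 13.1 to 17.1 CPM in the 6 wild-type libraries and at 3.09 to 5.40 CPM in the 6 clf libraries, so the genotype labels hold for the 4 libraries too. Leaf markers such as RBCS1A and RCA were abundant in every library: 10 of them summed to 41574 to 61573 CPM, and 12 measured root markers to 338 to 757 CPM, most of it from the beta-glucosidase gene PYK10. CPM here are not divided by gene length, so levels are compared between libraries and not between genes.

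Of 32678 genes in the table, 19148 passed the filter on low counts. Among these, 2703 (14.1%) were highest of their group in all 4 groups and 2827 (14.8%) were lowest. With library totals alone in place of trimmed-mean (TMM) scaling the counts were 2124 and 3556. Differences of at least 2-fold leaned to one side: 907 genes (4.74%) were highest in all 4 groups with at least a 2-fold difference between the 4 and the 8, and 128 (0.668%) were lowest with such a difference. The median log2 difference between the 4 and the 8 was -0.01 over all genes tested. These shares are the background for the counts of each gene group below, and since the choice of the libraries used this contrast nothing is read from them. The share of genes without overlap between all of the 4 and all of the 8 was not counted, so remarks on overlap below describe single genes.

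The clock genes, TOC1 among them, and the REVEILLE and day-length genes of the clock were left out of this part, which kept 19109 genes. The first principal component of log2 CPM, after each group's mean was subtracted, held 56.2% of the variance and placed the 4 libraries at 77.2, 69.1, 58.5 and 32.6, against -47.0 to -14.5 for the other 8. After the subtraction the scores of a group balance out. A chosen library far from its group mean therefore places the other 2 on the opposite side by construction. The sign of the axis was set so that the 4 were positive on average. The second component held 10.5%, with clf deficient 3 at 39.4 and wild type sufficient 3 at -29.0. Across 19109 genes, the differences of each chosen library from the other 2 of its group correlated with those of the other chosen libraries with Pearson's r of 0.64 to 0.72 among wild type sufficient 3, wild type deficient 2 and clf sufficient 3. The r with clf deficient 3 was 0.37, 0.43 and 0.51. Genes are not independent replicates, so these values describe likeness only. All 4 libraries leaned the same way, and clf deficient 3 was the least like the others.

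**Figure D1:**
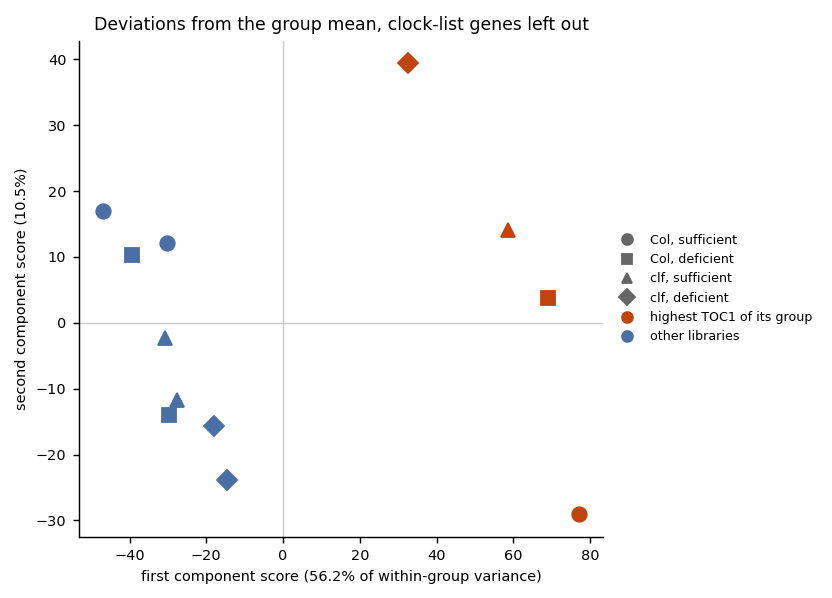
Scores of the 12 libraries on the first (x axis) and second (y axis) principal components of log2 CPM after subtraction of group means, with the percentage of variance on each axis. Clock, REVEILLE and day-length genes were left out. The 4 libraries with the highest TOC1 of their group lie at 32.6 to 77.2 on the first component and the other 8 at -47.0 to -14.5. Scores within a group balance out by construction.

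The morning genes of the clock were lower in the 4 libraries, without being absent, and those of the day and evening were higher. Of 8 morning genes 6 were lowest in all 4 groups, and none was highest, with a median log2 difference of -0.69. LHY, the partner of CCA1 at dawn, stood at 65.2, 231, 109.8 and 163 CPM in the 4 and at 204, 279 and 443 CPM (lowest, median and highest) in the 8, a log2 difference of -1.14 (SE 0.13). CCA1 stood at 57.2, 165, 94.0 and 126 CPM against 154, 197 and 253 CPM, a log2 difference of -0.92 (SE 0.11). For both genes 3 of the 4 libraries lay under all of the 8, and wild type deficient 2 lay inside their range. RVE8, a related MYB activator of evening genes, differed by -0.82 (SE 0.15), and its coactivators LNK1 and LNK2 by -0.70 (SE 0.09) and -0.69 (SE 0.11). RVE4, the close relative of RVE8, differed by -0.32 (SE 0.07), and its values of 65.6 to 78.6 CPM lay under all of the 8. PRR9, the first pseudo-response regulator of the day, showed no common direction, at 3.64, 1.68, 7.66 and 4.33 CPM against 1.72, 3.80 and 6.99 CPM. The gene AT5G52660 was mixed as well, at 11.5, 10.1, 6.38 and 5.37 CPM against 6.83, 7.89 and 8.95 CPM.

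PRR5, which represses CCA1 and LHY in the afternoon, stood at 28.2, 3.04, 18.6 and 8.60 CPM in the 4 and at 0.0899, 0.335 and 0.947 CPM in the 8, a log2 difference of 4.94 (SE 0.29). The groups did not overlap, and wild type deficient 2 was the lowest of the 4. PRR7, which acts earlier in the day, stood at 102, 51.3, 98.1 and 77.2 CPM against 30.9, 55.1 and 65.8 CPM (0.65, SE 0.06), highest in each group but with overlap between groups. PRR3, which stabilises TOC1 protein, was scarce, at 0.629, 0.411, 0.771 and 1.71 CPM against 0, 0.230 and 0.994 CPM, and was highest in 3 of the 4 groups.

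Of the 9 evening genes other than TOC1, 5 were highest in all 4 groups and none was lowest, with a median log2 difference of 1.39. FKF1 was nearly absent from the 8, at 0, 0.0329 and 0.175 CPM, and stood at 4.62, 0.739, 3.70 and 1.34 CPM in the 4, a log2 difference of 5.46 (SE 0.48). GI, the partner of FKF1 in degrading repressors of flowering, stood at 85.0, 12.7, 77.4 and 19.2 CPM against 2.82, 10.8 and 17.599 CPM (2.01, SE 0.17). GI was above 75 CPM in both chosen libraries on sufficient iron and under 20 CPM in both on deficient iron, where wild type deficient 2 overlapped with the range of the 8. LUX, the DNA-binding member of the evening complex, stood at 29.6, 16.1, 24.01 and 24.2 CPM against 5.96, 7.58 and 11.5 CPM (1.56, SE 0.19), with no overlap. ELF3, the scaffold of that complex, stood at 21.3, 10.1, 18.4 and 16.8 CPM against 6.43, 8.50 and 9.33 CPM (1.00, SE 0.12), also with no overlap. ELF4, its remaining member, was low in every library at 0.560, 0.411, 1.03 and 0.823 CPM against 0.0553, 0.238 and 0.503 CPM (1.39, SE 0.39). BOA, a close relative of LUX, was highest in 3 groups at 7.97, 2.13, 1.39 and 0.854 CPM against 0.0677, 0.285 and 0.854 CPM.

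The remaining evening genes differed little or unevenly. ZTL, an F-box protein that degrades TOC1 and whose transcript is known to cycle little, differed by -0.11 (SE 0.07). LKP2, its relative, differed by 0.16 (SE 0.09) and CHE, a repressor of CCA1, by 0.52 (SE 0.13). CHE was at 151 CPM in wild type sufficient 3 and at 36.1 CPM in clf deficient 3, so it separated the chosen libraries from each other more than from the 8. TOC1 itself, given only as the gene that made the choice, had a log2 difference of 1.80 (SE 0.13).

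**Figure D2:**
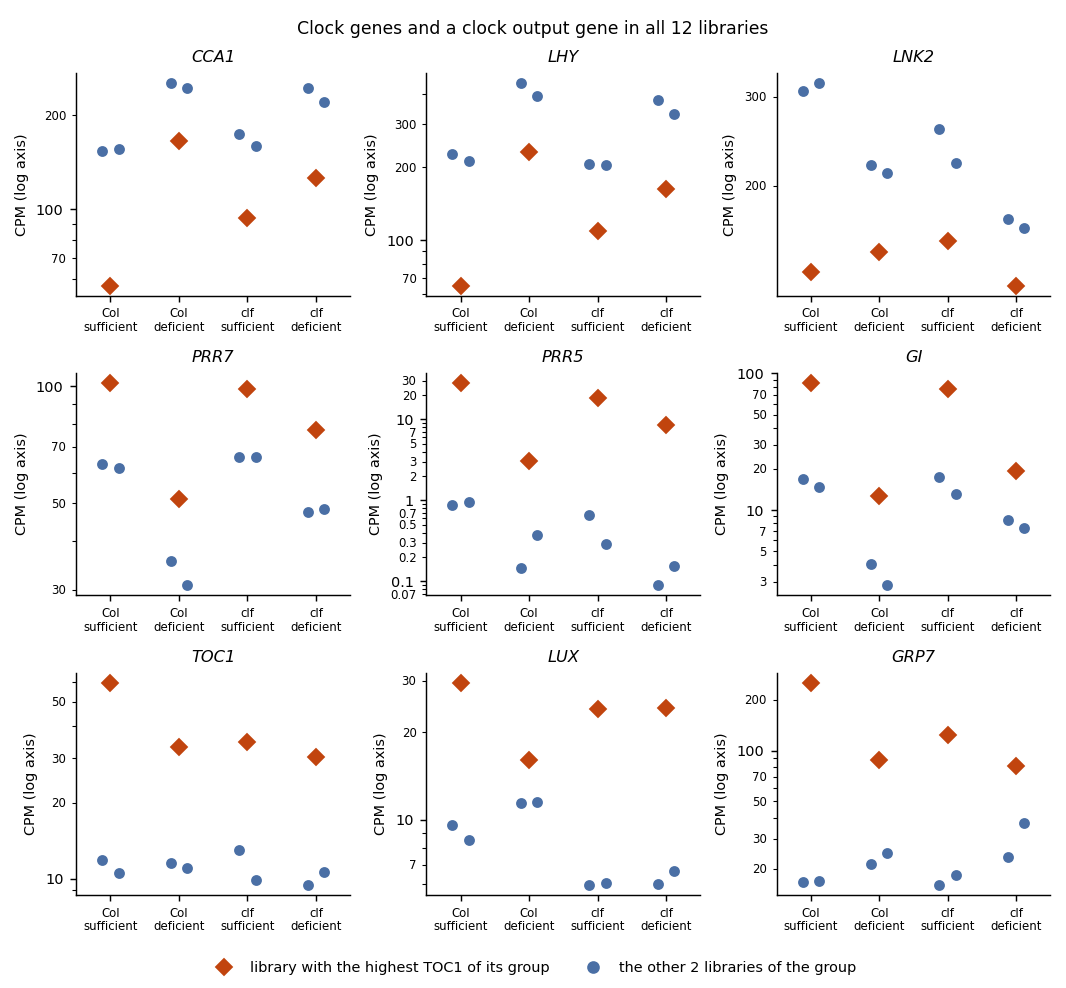
Level of clock genes in each library (y axis, CPM on a log scale), by group on the x axis, with the 4 libraries chosen on TOC1 and the other 8 marked apart. Points are single libraries: PRR5, LUX and GRP7 of the 4 lie above all of the 8, and CCA1 and LHY of the 4 lie at the bottom of each group.

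The other members of the REVEILLE family of MYB proteins, and the day-length genes that the clock controls, were mostly lower. RVE1, which promotes auxin synthesis, differed by -0.58 (SE 0.16), RVE2 by -0.51 (SE 0.15), ASG4 (RVE3) by -0.54 (SE 0.14) and AT4G01280 by -0.38 (SE 0.09), and each was lowest in all 4 groups. RVE7 was the exception at 0.91 (SE 0.16), highest in all 4. The flowering regulator CO was scarce, at 0.280 to 0.823 CPM in the 4 and 0.225 to 0.497 CPM in the 8. Its repressors CDF1, CDF2 and CDF3, whose proteins GI and FKF1 degrade, were lowest in all 4 groups, with log2 differences of -0.50 (SE 0.07), -0.58 (SE 0.11) and -0.42 (SE 0.10), and AT1G69570 in 3 groups (-0.51, SE 0.32). COL2, a relative of CO, stood at 50.4, 76.3, 81.3 and 61.5 CPM against 113, 129 and 139 CPM (-0.92, SE 0.12), with no overlap.

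The B-box proteins of light signalling BBX18, BBX19 and BBX25 were lowest in all 4 groups, at -0.76 (SE 0.14), -0.88 (SE 0.14) and -0.66 (SE 0.13), and BBX24 in 3 (-0.20, SE 0.06). GRP7, an RNA-binding protein that forms a slave oscillator of the clock and peaks in the evening, went the other way. It stood at 252, 87.6, 123 and 81.4 CPM in the 4 and at 16.0, 19.9 and 37.2 CPM in the 8 (2.60, SE 0.30), and its paralog GRP8 at 127, 80.2, 93.7 and 86.2 CPM against 52.1, 65.1 and 77.1 CPM (0.56, SE 0.11). For both genes the groups did not overlap. FT, the flowering signal, depended on genotype instead: it stood at 0, 0.123, 10.3 and 10.5 CPM in the 4 and differed by -0.14 (SE 0.21) overall.

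The evening element was then looked for in the promoters of RefSeq on the TAIR10.1 assembly, from 250 bases before to 50 bases after each gene's start. It is shown for 5 genes that hold it and were highest in all 4 groups, since this is the sequence through which CCA1 and LHY act. Among the genes described here it was also found in genes that were lowest in all 4 groups, such as COL2 and FLS1, and it was not found in this window of GI, ELF3 or ELF4, which were higher. Each stretch of 60 bases runs 5′ to 3′ along the gene's own strand, with AAAATATCT or its reverse complement AGATATTTT in capitals.
TOC1, chr5:24674786-24674845, plus strand: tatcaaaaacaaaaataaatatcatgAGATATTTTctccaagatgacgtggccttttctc
PRR5, chr5:8358700-8358759, minus strand: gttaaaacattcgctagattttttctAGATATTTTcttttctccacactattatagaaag
FKF1, chr1:25508427-25508486, plus strand: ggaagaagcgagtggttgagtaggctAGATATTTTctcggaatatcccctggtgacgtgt
LUX, chr3:17182963-17183022, plus strand: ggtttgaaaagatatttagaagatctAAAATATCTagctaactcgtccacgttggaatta
ISA3, chr4:5783844-5783903, plus strand: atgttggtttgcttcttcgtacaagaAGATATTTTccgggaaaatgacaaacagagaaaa
The first 4 are clock genes, and ISA3 encodes a debranching enzyme of starch breakdown. TOC1 made the choice of libraries, so it is shown for its sequence only.

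AAAATATCT was found on either strand in 73 of 895 promoters of the genes highest in all groups with at least a 2-fold difference (8.16%, Wilson 95% interval 6.54% to 10.1%). It was found in 0 of 119 promoters of the genes lowest with such a difference, which allows up to 3.13% by the same interval, in 45 of the 2793 promoters of all lower genes (1.61%), in 558 of 18715 promoters of all genes tested (2.98%) and in 2.82% of 27443 promoters of all protein-coding genes. TOC1, which made the choice, and the clock genes PRR5, FKF1 and LUX are among the 73 and were not taken out. The rapid stress response element CGCGTT, added after the data were seen, was in 8.49% of the promoters of the higher genes, in 0 of 119 of the lower genes and in 3.77% of those tested. The telo-box AAACCCTA, common in genes of the translation machinery, was in 2.01% of the promoters of the higher genes, against 5.50% of those tested. It was in 2.52% of the promoters of the lower genes with the 2-fold minimum and in 8.09% of those without it. Shares were closer to those of all tested genes for the CCA1-binding site AAAAATCT (8.72% against 8.26%), the G-box CACGTG (11.2% against 8.95%) and the core AACGG of the mitosis-specific activator element (29.3% against 26.3%), the last also added after the data were seen. CACGTG reads the same on both strands, the other motifs were searched on both, and none of the 6 motifs contains another. A match is a run of letters in a window and was not tested as a binding site.

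Starch is made in leaves by day and broken down at night, and the genes for breakdown were higher in the 4 libraries. Of 14 such genes 8 were highest in all 4 groups and none was lowest, with a median log2 difference of 1.08. ISA3 stood at 12.2, 8.13, 11.8 and 12.5 CPM in the 4 and at 2.23, 2.75 and 4.37 CPM in the 8 (1.83, SE 0.21). The cytosolic glucan phosphorylase PHS2 stood at 191, 101, 145 and 101 CPM against 28.5, 39.5 and 50.7 CPM (1.78, SE 0.14). For both, all 4 lay above all 8. The plastid phosphorylase PHS1 and the disproportionating enzyme DPE1 differed by 1.66 (SE 0.17) and 1.63 (SE 0.13), DPE1 with no overlap. The main leaf beta-amylase gene BAM3 was the opposite case, lowest in 3 of 4 groups (-0.38, SE 0.16).

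Genes of starch synthesis did not share a direction. Of 15, 3 were highest and 4 lowest in all 4 groups, with a median of 0.13. The highest numbered 6 without wild type deficient 1, 7 without wild type deficient 2 and 5 without clf sufficient 3. The granule-bound starch synthase GBSS1, a known direct target of CCA1 and LHY, stood at 110.4, 291, 131 and 187 CPM against 201, 256 and 481 CPM (-0.74, SE 0.07). The isoamylase subunit ISA2 and the synthase SS2 were also lowest in all 4 (-0.49, SE 0.11 and -0.45, SE 0.09), while SS4, which starts new granules, was highest in all 4 (0.48, SE 0.11).

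Genes that are known to rise in darkness and under sugar shortage were higher. Of 19, 10 were highest in all 4 groups and 1 was lowest, the trehalose-phosphate synthase gene TPS5, with a median of 0.71. DRM1, a dormancy-associated gene, stood at 261, 60.1, 202 and 115 CPM in the 4 and at 13.2, 47.7 and 88.7 CPM in the 8 (1.77, SE 0.11). GDH2, a glutamate dehydrogenase subunit, stood at 367, 134, 312 and 324 CPM against 47.2, 78.1 and 137 CPM (1.72, SE 0.18). The BTB protein gene BT2 differed by 1.23 (SE 0.19) and DIN6, the dark-inducible asparagine synthetase, by 1.08 (SE 0.11). In all 4 of these genes wild type deficient 2 was the lowest of the chosen libraries. Its whole group was low for this list, which summed to 1374 and 1310 CPM in the other libraries of that group. In the libraries of the 8 from the other groups it summed to 2050 to 4055 CPM. The list summed to 2063 CPM in wild type deficient 2 and to 4203 CPM in clf deficient 3, both on deficient iron. With all 12 libraries, 10 of the 19 genes were called lower under iron deficiency and 1 higher. Over all 19148 genes tested 1268 were called lower and 1340 higher. Of 12 nitrogen assimilation genes, 2 were highest in all 4 groups (the nitrate reductase gene NIA1, 0.45, SE 0.09, and the repressor LBD37, 0.44, SE 0.10) and 1 was lowest (the ferredoxin-dependent glutamate synthase GLU1, -0.45, SE 0.09). Without clf deficient 3 the highest numbered 4, and without wild type sufficient 3 the lowest numbered 2. With all libraries the shares were 16.7% highest and 8.33% lowest, beside 14.1% and 14.8% of all genes tested.

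The genes of the light-harvesting antenna were slightly higher. Of 20, 8 were highest in all 4 groups and none was lowest, with a median of 0.17. Without clf deficient 1 or clf deficient 3 the count was 13. LHCB1.4 had the greatest difference, at 6895, 3324, 2965 and 1212 CPM in the 4 and 552, 1207 and 3310.2 CPM in the 8 (1.23, SE 0.07), followed by LHCB1.5 (0.64, SE 0.08), LHCB1.2 (0.51, SE 0.08) and LHCA2 (0.47, SE 0.07). LHCB1.1 to LHCB1.3 are near-identical copies, so reads may be split between them and LHCB1.2 is uncertain. Sums over the antenna genes overlapped, at 93186 to 214388 CPM in the 4 and 72793 to 166891 CPM in the 8.

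All 7 measured genes of mitosis were highest in all 4 groups, with a median of 1.45. The B-type cyclin CYC1BAT stood at 12.6, 13.4, 13.0 and 14.1 CPM in the 4 and at 2.74, 4.38 and 7.31 CPM in the 8 (1.62, SE 0.19). The mitotic kinase CDKB2;1 stood at 17.77, 14.5, 9.15 and 11.8 CPM against 2.03, 4.99 and 7.85 CPM (1.60, SE 0.23), CYCB1;1 differed by 1.55 (SE 0.25) and CDKB2;2 by 1.45 (SE 0.17). All 4 libraries lay above all 8 for these 4 genes, which had the greatest differences of the list. The share of all genes tested that separate in this way was not counted. The sum over the list was 58.5 to 85.3 CPM in the 4 and 18.21 to 43.0 CPM in the 8. The meristem markers STM and KNAT1 showed no common direction (0.38, SE 0.45 and -0.31, SE 0.22), WUS had 0 counts and CLV3 1 count in all libraries together. In bulk shoots, more cells of a type and more RNA per cell cannot be told apart.

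Genes that are known to respond within minutes to touch and wounding, including those of jasmonate signalling, had the greatest median difference of the lists. All 20 had a positive log2 difference, with a median of 3.73, and 5 were highest in all 4 groups. In the 3 groups without clf on deficient iron all 20 were highest, beside 18.3% of all genes tested, and without clf deficient 1 alone 15 were highest in all 4. The 20 genes summed to 6285 CPM in wild type sufficient 3, 5905 CPM in wild type deficient 2, 3520.2 CPM in clf sufficient 3 and 1376 CPM in clf deficient 3, against 395 to 1179 CPM in the 8. TCH3, a calmodulin-like calcium sensor, stood at 1639, 821, 776 and 592 CPM in the 4 and at 62.3, 106 and 331 CPM in the 8 (2.72, SE 0.28), with no overlap.

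JAZ7, JAZ1 and JAZ10, repressors of jasmonate signalling, differed by 4.58 (SE 0.85), 4.03 (SE 0.63) and 3.47 (SE 0.64). JAZ10 stood at 67.6, 20.0, 2.83 and 1.62 CPM against 0.466, 1.13 and 1.51 CPM, so the differences were greatest in the wild-type libraries. JAZ1 stood at 308, 188, 58.5 and 9.64 CPM against 3.39, 5.75 and 11.4 CPM, where clf deficient 3 was highest of its group but inside the range of the 8. The labels used here say nothing of how long plants were handled before freezing.

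Of 13 cold-response genes 11 had a positive log2 difference, with a median of 1.54, and 3 were highest in all 4 groups and none was lowest. Leaving out wild type deficient 2, wild type deficient 3 or clf deficient 1 gave 5 that were highest, and leaving out clf deficient 3 gave 6. The transcription factor CBF3 stood at 0.909, 1.89, 2.47 and 0.366 CPM against 0, 0.119 and 0.283 CPM (3.20, SE 0.68). It is a near-identical neighbour of CBF1 and CBF2, so its counts are uncertain. The dehydrin gene COR47 stood at 965, 290.5, 320.0 and 256 CPM against 136, 181 and 218 CPM (1.19, SE 0.27), with all 4 above all 8. AT4G33980 stood at 2.87, 0.616, 3.65 and 2.17 CPM against 0, 0.0157 and 0.328 CPM (4.83, SE 0.52). The cold-response gene RD29A, chosen after its values were seen, stood at 720 CPM in wild type sufficient 3 and at 14.6 to 52.4 CPM in all 11 other libraries.

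Among 11 heat-response genes DREB2A, a transcription factor of heat and drought responses, was the one that was highest in all 4 groups, at 33.9, 44.3, 35.5 and 2.26 CPM against 0.273, 0.470 and 0.785 CPM (5.36, SE 0.54). That is 9.09% of the list, beside 14.1% of all genes tested. The median of the 11 was 0.89, none was lowest in all groups, and without clf deficient 3 the count was 6 of 12 measured. Of 6 senescence genes SAG21, at 238, 222, 161 and 240.4 CPM against 44.2, 76.2 and 164 CPM, was highest in all 4 and NYE1, which starts chlorophyll breakdown, lowest (-0.35, SE 0.09). These are 16.7% of the list each, close to the 14.1% and 14.8% of all genes tested.

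**Figure D3:**
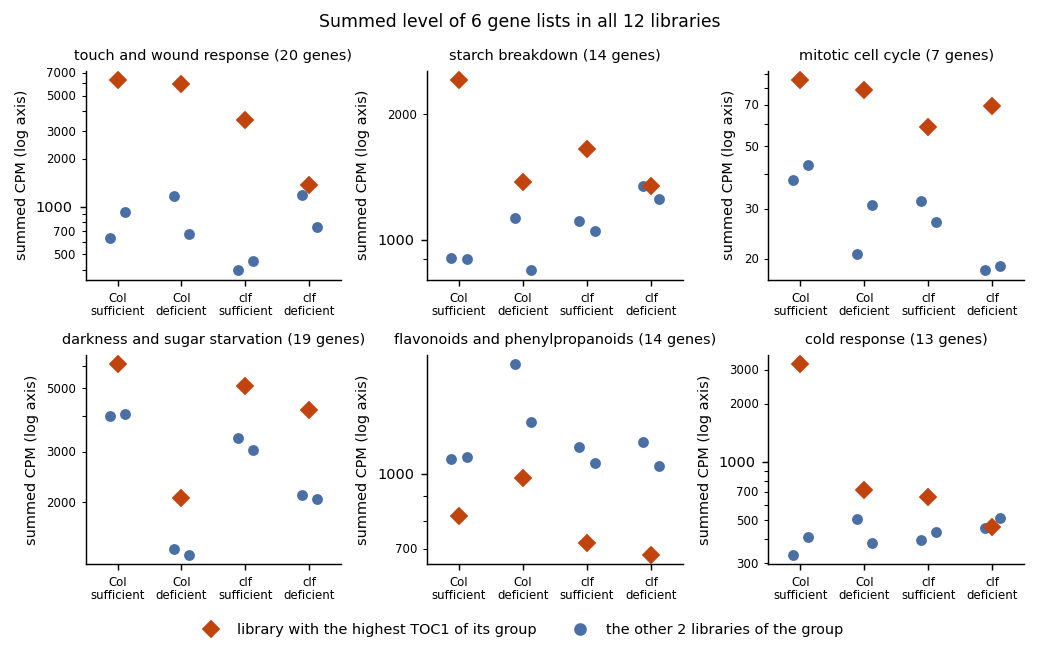
Summed level of gene lists in each library (y axis, CPM on a log scale), by group on the x axis, with the 4 chosen libraries marked. The touch and wound list is at 1376 to 6285 CPM in the 4 and 395 to 1179 CPM in the 8, and the mitosis list at 58.5 to 85.3 CPM and 18.21 to 43.0 CPM.

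The genes of flavonoid and phenylpropanoid synthesis were lower. All 14 measured had a negative log2 difference, 8 were lowest in all 4 groups and none was highest, with a median of -0.60. Chalcone synthase, CHS, the entry enzyme of flavonoids, stood at 66.9, 119, 97.0 and 75.9 CPM in the 4 and at 108, 164 and 363 CPM in the 8 (-1.07, SE 0.18). The flavonol synthase FLS1 differed by -0.74 (SE 0.13), and the coumarate ligases 4CL3 and 4CL1 by -0.72 (SE 0.14) and -0.67 (SE 0.06). The late anthocyanin genes DFR and LDOX, chosen after their values were seen, varied between replicates of the 8 instead, with up to 47.5 and 32.3 CPM in wild type deficient 1.

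Genes of light and ultraviolet signalling were mostly lower too, with 4 of 10 lowest and 2 highest in all 4 groups and a median of -0.58. Leaving out wild type sufficient 1 or 3 gave 7 that were lowest. HYH, a bZIP relative of HY5, stood at 2.45, 7.23, 3.65 and 5.52 CPM against 6.09, 9.10 and 14.6 CPM (-1.03, SE 0.13), and SIG5, a sigma factor of plastid transcription, at 61.1, 51.5, 66.2 and 61.996 CPM against 83.2, 107 and 126 CPM (-0.79, SE 0.06). For SIG5 the groups did not overlap. RUP2, a repressor of the ultraviolet-B receptor, was lowest in all 4 (-0.67, SE 0.10) and its relative RUP1 highest (0.55, SE 0.12).

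In growth and shade signalling 3 of 13 genes (23.1%) were lowest in all 4 groups, beside 14.8% of all genes tested. Of the 13, 1 (7.69%) was highest, beside 14.1% of all genes tested, and the median was -0.72. Without clf deficient 1 or clf deficient 3 the lowest numbered 5 and 6, and without clf deficient 3, wild type deficient 1 or wild type deficient 2 the highest numbered 2. The auxin-response gene IAA6, the expansin gene EXPA8 and the bHLH regulator HFR1 were lowest (-0.85, SE 0.26, -0.87, SE 0.19 and -0.72, SE 0.20). XTH15, a cell-wall-loosening enzyme, was highest, at 15.2, 23.8, 46.6 and 129 CPM against 11.6, 19.5 and 39.4 CPM (1.02, SE 0.28), and clf deficient 3 stood far above the rest.

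Markers of leaf and root were mostly lower in the 4, and those of the other plant parts were not. Of 10 leaf markers 7 were lowest in all 4 groups, with a median of -0.24, and the photorespiratory gene GLDP1 and the Rubisco subunit RBCS1B differed by -0.63 (SE 0.10) and -0.63 (SE 0.10). The leaf sum was 41574 to 53144 CPM in the 4 and 42809 to 61573 CPM in the 8. Of 12 root markers 5 were lowest in all 4, and all 12 had a negative log2 difference, with a median of -1.01. Without wild type sufficient 1 or 3 the count was 9, and without clf deficient 1 or 3 it was 8. CASP1, of the Casparian strip, stood at 1.19, 1.85, 1.65 and 0.518 CPM against 1.21, 2.91 and 5.88 CPM (-1.36, SE 0.32). The root sum was 338 to 496 CPM in the 4 and 352 to 757 CPM in the 8, and CASP4, COBL9, EXPA7 and EXPA18 were at 0 in some libraries. Guard cell, phloem and xylem markers showed 1 of 4, 1 of 5 and 0 of 5 highest and 1, 0 and 0 lowest in all 4 groups. The phloem count was 3 without clf sufficient 1 or 3. The part of root tissue in the differences was not tested.

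The genes the study was about did not follow the split. Of 24 iron homeostasis genes none was highest or lowest in all 4 groups, with a median of -0.00. Library totals alone gave 2 that were lowest. Leaving out wild type deficient 1 or 2 gave 2 and 3 that were highest, and leaving out wild type sufficient 3, clf deficient 1 or clf deficient 3 gave 3, 2 and 2 that were lowest. The iron-deficiency regulator BHLH38 was at 0.420 and 0.257 CPM in the chosen libraries on sufficient iron and at 300.4 and 229.6 CPM in those on deficient iron. Of 12 Polycomb and floral genes none was highest or lowest in all 4, with a median of -0.11. SEP3, a floral regulator that Polycomb represses, was at 1.47 and 1.03 CPM in the chosen wild-type libraries and at 114 and 91.7 CPM in the chosen clf libraries.

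**Figure D4:**
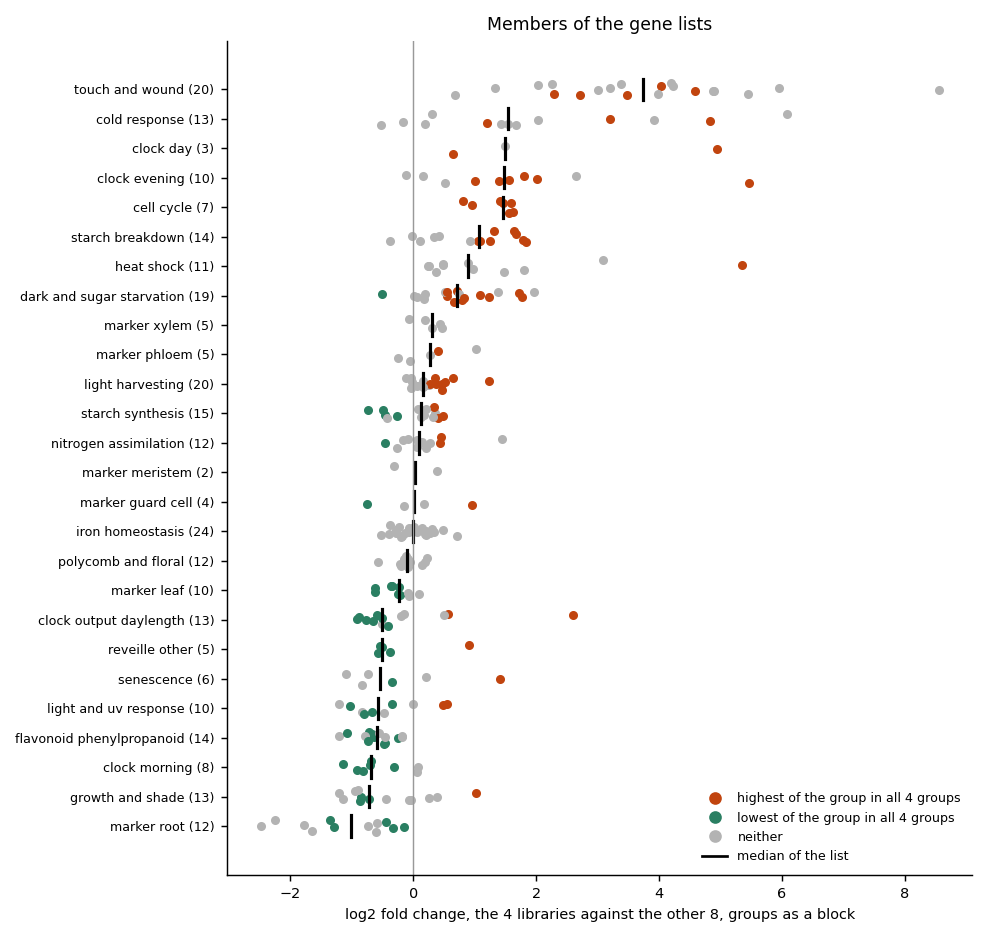
Log2 difference between the 4 libraries and the other 8 (x axis) of every measured member of each gene list (y axis), 1 point a gene. The touch and wound genes lie at a median of 3.73, the morning clock genes at -0.69 and the iron homeostasis genes at -0.00, beside -0.01 over all genes tested.

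Over all genes, the 10 with the greatest positive difference, among those highest in all 4 groups with at least 5 CPM on average in the 4, were AT2G17660, RAS1, AT5G62360, SRO5, GRX480, CYP94C1, DREB2A, AT1G56300, AT5G65300 and MYB15, with log2 differences of 5.18 to 7.48. AT2G17660 stood at 29.6, 12.6, 1.44 and 0.244 CPM in the 4 and at 0 to 0.110 CPM in the 8. CYP94C1, which inactivates jasmonoyl-isoleucine by oxidation, stood at 402, 74.6, 9.97 and 1.77 CPM against 0.219, 1.14 and 2.50 CPM (5.37, SE 0.93). AT1G56300 was the gene of the 10 in which clf deficient 3 was close to the others, at 22.2, 7.18, 20.4 and 10.3 CPM against 0.109, 0.239 and 0.641 CPM. In the other 9 genes clf deficient 3 was at 2.26 CPM or less.

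The 10 with the greatest negative difference, chosen by the same rule with 5 CPM in the 8, were PDF1.2c, AT2G16005, HRGP1, AT3G54580, AT3G28550, PDF1.3, CYP705A5, THAS1, AT2G05510 and CYP708A2, at -2.49 to -1.44. PDF1.2c and PDF1.3 are near-identical plant defensin genes, and HRGP1 and AT3G54580 are neighbouring genes of like sequence, so these 4 are uncertain. THAS1, CYP708A2 and CYP705A5 are neighbours on chromosome 5 that encode the first enzymes of thalianol synthesis, a triterpene of roots. THAS1 stood at 0.420, 3.00, 3.39 and 1.62 CPM against 2.92, 5.60 and 10.6 CPM (-1.51, SE 0.30), CYP708A2 at 0.909, 2.83, 1.90 and 2.35 CPM against 2.65, 5.38 and 10.02 CPM, and CYP705A5 at 0.490, 4.35, 1.90 and 2.04 CPM against 3.32, 6.49 and 13.3 CPM. All 3 were lower in the 4 together with the root markers above.

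The 4 libraries differed in how far they stood from their own group. Among 13150 genes with at least 5 CPM on average in the series, wild type sufficient 3 was at least 2-fold above the mean of the other 2 of its group for 1043 genes and as far below it for 291, while those 2 differed from each other 2-fold for 157. For wild type deficient 2 the counts were 784, 46 and 258, for clf sufficient 3 they were 683, 51 and 114, and for clf deficient 3 they were 492, 129 and 117. Of these genes 227 were 2-fold higher in all 4 groups and another 274 in the 3 without clf deficient 3, and 6 were 2-fold lower in all 4. Genes past 2-fold in 1 group alone numbered 308 higher and 229 lower for wild type sufficient 3, 58 and 18 for wild type deficient 2, 38 and 25 for clf sufficient 3, and 108 and 72 for clf deficient 3.

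Genes that marked single libraries were chosen after their values were seen. In wild type sufficient 3 the 5 genes furthest above the other replicates, among those past 2-fold in that group alone, were RD29A, AT4G27560, AT4G12000, the dehydrin gene LTI30 and AT1G75860. AT4G27560 was at 46.9 CPM there, AT4G12000 at 37.2 CPM, LTI30 at 32.7 CPM and AT1G75860 at 54.4 CPM, and these 4 reached at most 12.9 CPM in the other 11 libraries. Threonine aldolase THA1 was at 28.6 CPM in clf deficient 3 and at 1.14 to 8.84 CPM elsewhere, and XTH15 at 129 CPM there and 11.6 to 46.6 CPM elsewhere. In wild type on deficient iron the greatest differences arose from replicate 1, outside the choice: AT3G13180 was at 0.110 CPM and MEE49 at 0.221 CPM there, beside 22.8 and 14.0 CPM in wild type deficient 2.

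The responses to iron and to clf were then set side by side in the 4 and in the 8. A test of the interaction of the split with iron and with genotype was run with edgeR, but its p-values are too small to be read as tests. Each combination holds 1 chosen library, picked as the extreme of its group, so the spread behind the p-values comes almost wholly from pairs without a chosen library. Chi-square per gene between the 2 replicates of such a pair was 5.41 to 34.7, against 46.1 to 104 for the 8 pairs with a chosen library. Counts of calls below are therefore a description, no p is given for a gene, and the interaction's standard errors are left out.

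By this count over 19148 genes (Benjamini-Hochberg adjustment of edgeR's quasi-likelihood p) the response to iron deficiency, deficient minus sufficient, differed between the 4 and the 8 for 18 genes (0.094%), higher in the 4 for 2 and lower for 16. DESeq2 called 171, library totals alone gave 1 higher and 2 lower, and leaving out wild type sufficient 1 or clf sufficient 2 ended all calls. PUB19, a ubiquitin ligase gene of abscisic acid signalling, was the first in order of p. PUB19 stood at 42.4, 78.1, 19.6 and 6.71 CPM in the 4 and at 0.271, 6.20 and 15.7 CPM in the 8, and its log2 response to iron deficiency was -0.33 in the 4 and 2.39 in the 8. DIN2, a beta-glucosidase gene induced in darkness, went the other way, with responses of 1.05 and -2.23. The responses of the plastid outer envelope channel OEP16-1, the bHLH factor AIB, the cold-inducible KIN2 and the lipocalin CHL were lower in the 4 by log2 differences of -1.44, -1.04, -1.66 and -1.27. Among the clock genes GRP7 had a response of -1.06 in the 4 and of 0.61 in the 8.

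The clf effect (clf minus wild type) differed between the 4 and the 8 for 311 genes (1.62%), higher in the 4 for 67 and lower for 244. DESeq2 called 532, and 7 genes were called in both interactions. With library totals alone the split was 109 higher and 222 lower. Of the 244 genes with a lower clf effect, 154 were at least 2-fold higher in the 4 than in the 8 as a mean over the groups, so for these the excess was greater in the chosen wild-type libraries than in the chosen clf libraries. AT3G19240 shows the pattern: it stood at 277, 184, 62.1 and 32.8 CPM in the 4 and at 29.2, 33.1 and 39.7 CPM in the 8, with a clf effect of -2.32 in the 4 and 0.27 in the 8.

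ATAF1, a NAC factor of stress and abscisic acid responses, stood at 188, 147, 68.8 and 36.8 CPM against 16.4, 28.3 and 39.1 CPM, and its clf effect was lower in the 4 by a log2 difference of -2.78. The alkaline/neutral invertase gene A/N-InvC stood at 245, 96.8, 57.5 and 25.2 CPM against 7.95, 18.0 and 23.4 CPM (difference -2.55). For PUB19 the difference was -5.13. In all 3 genes the chosen wild-type libraries stood above the chosen clf libraries.

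The touch and wound genes showed the same order in their summed level, 6285 and 5905 CPM in the chosen wild-type libraries and 3520.2 and 1376 CPM in the chosen clf libraries. The repressor gene JAZ10 had a clf effect of -4.05 in the 4 and of -0.52 in the 8. BAM1, an amylase of guard cells and stress responses, had a clf effect of -1.24 in the 4 and of 0.77 in the 8.

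Taking the split into account changed how many genes passed the tests of iron and genotype. The mean effect of iron deficiency over both genotypes was called for 2608 genes (13.6%) with all 12 libraries, 1340 higher and 1268 lower. With a term for the 4 libraries it was called for 5259 (27.5%), which included all of the 2608. In the other 8 libraries alone it was called for 4564 (23.8%), of which 2378 were shared with the first fit, 230 were lost and 2186 were gained. With library totals alone in place of TMM the split of the first fit was 4052 higher and 561 lower, and the median of all genes moved from -0.01 to 0.20 on the log2 scale. The term was chosen with these data in view, and leaving out the extreme library of each group narrows the spread by construction, so the gain in calls is a description.

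The mean clf effect was called for 2432 genes (12.7%) with all 12 libraries, 1486 higher and 946 lower, for 4965 (25.9%) with the term and for 4275 (22.3%) in the other 8. The latter shared 2213 with the first fit, 219 were lost and 2062 gained. With library totals alone the split of the first fit was 1930 higher and 484 lower. Of the 2608 iron calls all had the same sign in the 4 and in the 8, and of the 2432 clf calls 2431 did. Since both sets of libraries entered the fit that made these calls, the signs are a description.

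Iron homeostasis genes were called alike in all 3 fits: 17 of 24 rose under deficiency, 6 fell and 1, the ferritin gene FER3 (log2 -1.06, edgeR adjusted p = 0.18 with all 12), did not pass. FER3 was at 155 CPM in wild type sufficient 3 and at 12.4 to 24.8 CPM in the 11 other libraries. The ferric reductase gene FRO3 had a log2 response of 3.84 in the 4 and of 4.07 in the 8. OPT3, a phloem transporter of iron, had responses of 2.99 and 2.94, and the iron sensor BTS of 3.19 and 3.33. The iron homeostasis genes FRO2, IRT1 and CYP82C4 had smaller responses in the 4, at 1.45, 1.14 and 2.06, than in the 8, at 3.82, 3.71 and 4.78. Those differences were not called. CYP82C4 was at 4.97 CPM in wild type sufficient 3, beside 1.27 and 0.880 CPM in the rest of its group. In clf deficient 3 it was at 3.48 CPM, beside 13.1 and 14.8 CPM.

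Of 12 Polycomb and floral genes 6 were higher in clf (AG, SEP3, AP3, PI, FLC and SOC1) and CLF was lower, in the fit to all 12, in that with the term and in that to the other 8. The clf effect on SEP3 was 6.28 on the log2 scale in the 4 and 6.67 in the 8, and that on FLC, the repressor of flowering, 2.14 and 2.33. The clf effect on CLF itself was -1.41 in the 4 and -1.99 in the 8. AP3 had 0 counts in some wild-type libraries, so its fold is not given.

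**Figure D5:**
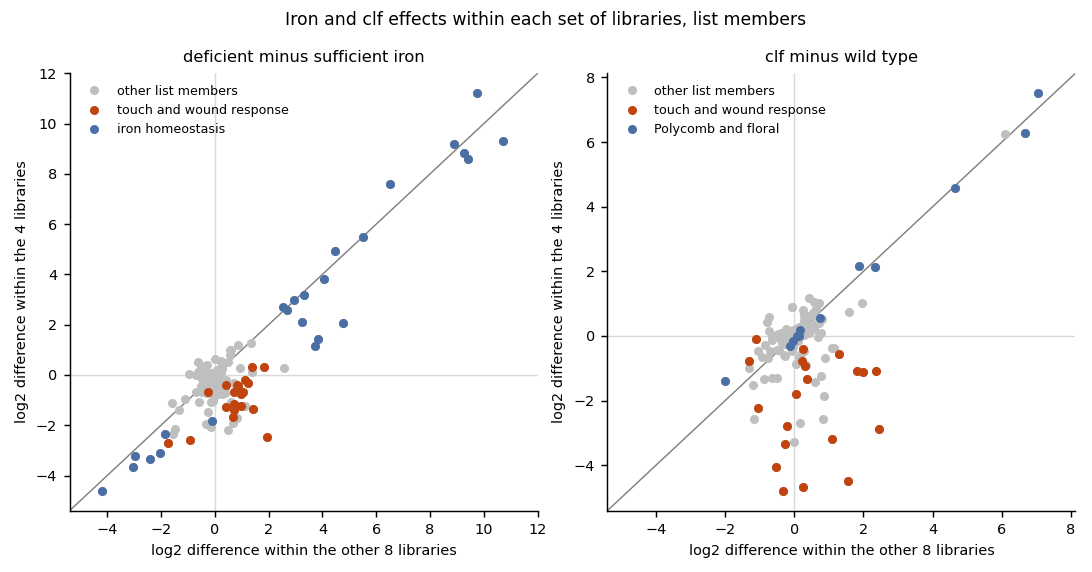
Effect in the other 8 libraries (x axis, log2) against that in the 4 (y axis, log2) for members of 10 gene lists, with the iron effect and the clf effect in separate panels and the line of equality. Iron homeostasis genes range over both axes near the line, with FRO2, IRT1 and CYP82C4 under it at 1.45, 1.14 and 2.06 against 3.82, 3.71 and 4.78.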

How the data were processed

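RNA from shoots was sequenced as 12 libraries in 4 groups of 3, assigned from the titles. The deposited table holds unnormalized whole-number counts per gene, judged from its values. The submitters' processing notes name TopHat2, without a version, and the TAIR10 build for the authors' alignment. How reads were counted, and on which strand, is not given in the sources used here. FPKM values, which the authors deposited too, were not used. Gene names, coordinates and promoters come from RefSeq on TAIR10.1, in which 31912 of 32678 identifiers were found and all 306 genes looked up had a promoter.

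The 4 libraries, the gene lists and the tests were chosen with earlier results of these data known. A filter on low counts (edgeR's filterByExpr on the groups, with a minimum count of 10 and a minimum total of 15) kept 19148 genes, while 8107 had 0 counts everywhere. After TMM scaling, models were fitted with glmQLFit of edgeR 4.0.16 in R 4.3.3 (common biological coefficient of variation 0.308 over 8 residual degrees of freedom). Differences between the 4 and the 8 are edgeR log2 fold changes with an SE, fitted with the groups as a block, and no p is given. The SE was worked back as the size of the log2 fold change over the square root of edgeR's F for this contrast. It takes the choice of the libraries as given and describes spread only. Interactions and mean effects were fitted with glmQLFTest, the interactions as a description for the reason given in the report, and genes were called where the p adjusted by Benjamini-Hochberg was under 0.05. DESeq2 1.42.0 was run as an alternative. Principal components and the correlations between the chosen libraries used log2 CPM with a prior count of 2, without the clock, REVEILLE and day-length genes. The edgeR fits and the count of genes highest or lowest in all groups were run on simulated counts, and the other steps were not. Chi-square per gene between replicates of a group was 5.41 to 104, so no pair agreed within sampling noise.

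Members of the clock, iron and Polycomb lists could be named without condition. In other lists up to 4 members with the greatest difference were named among those highest or lowest in all 4 groups, over all genes 10 in each direction with at least 5 CPM, and for each interaction the 10 with the smallest adjusted p. AT4G27560, AT4G12000, AT1G75860, BAM1, BAM3, TPS5, KNAT1, STM and JAZ10 in the interaction, and those said so in the text, fall outside this rule and were chosen after their values were seen. Counts of reads without molecular identifiers are not independent molecules, so the intervals of motif shares cover counting error only.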

Additional observations from a re-analysis of the deposited data

Results flagged for a closer look

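Results were listed here where the effect of iron or of clf differed between the 4 libraries with the highest TOC1 and the other 8 in an interaction fitted with edgeR. Because the chosen libraries are the extremes of their groups and each stands alone in its combination, the p-values are too small, and the differences count as not tested. The response to iron deficiency was higher in the 4 for 2 genes and lower for 16. The 10 with the smallest adjusted p were PUB19 (log2 difference -2.72), AT4G36010 (-2.68), DIN2 (3.31), AT3G43670 (-1.34), AT4G25030 (-1.14), BPS3 (-5.58), OEP16-1 (-1.44), KIN2 (-1.66), AIB (-1.04) and CHL (-1.27).

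The clf effect was higher in the 4 for 67 genes and lower for 244. The 10 with the smallest adjusted p were all lower: PUB19 (log2 difference -5.13), AT3G19240 (-2.59), AT1G78070 (-3.62), AT5G56980 (-3.14), AT4G36010 (-4.36), ATAF1 (-2.78), AT1G56660 (-3.67), AT1G15010 (-5.25), BPS3 (-8.23) and A/N-InvC (-2.55). BPS3 had under 1 CPM in all of the 8 and 0 counts in wild type sufficient 1, so its fitted differences depend on the prior count. In all 10 genes both chosen wild-type libraries stood above the other wild-type libraries. Each combination of iron, genotype and choice holds 1 chosen library, and the cause of these differences was not tested.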

How the results depend on the processing

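None of the 10 genes named for each interaction reversed under the alternatives run. The iron and clf calls shared with the fit with the term, or with that to the other 8, kept their sign. Under the other alternatives the remaining calls were followed as counts only. The differences of PRR9, AT5G52660 and FT between the 4 and the 8, near 0, changed sign under some alternatives. Counts that moved by over 1.5 times follow, higher before lower, and the cause was not tested. Calls of the interactions are counts without a valid test, as given above. With at least 50 counts in every library, the genes that stood apart 2-fold in all groups numbered 420 and 13. The iron interaction gave 1 and 2 calls with library totals alone, 51 and 211 without a filter, 1 and 10 with at least 50 counts and 38 and 133 with DESeq2. The clf interaction gave 109 higher with library totals alone, 189 and 531 without a filter, and 132 and 400 with DESeq2. Library totals alone and the minimum of 50 counts were chosen for the interactions and the mean effects after the data were seen. The iron effect gave 4052 and 561 with library totals alone, 2702 and 2557 with the term for the 4, and 2464 and 2100 without the 4 libraries. The clf effect gave 484 lower with library totals alone, 1452 lower with DESeq2, 2612 and 2353 with the term, and 2306 and 1969 without the 4. Without a minimum fold, 5.49% of promoters of higher genes held the evening element and 8.09% of those of lower genes the telo-box.

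When 1 library at a time was left out, genes apart 2-fold numbered 933 to 1312 higher and 140 to 222 lower, the last by leaving out clf sufficient 3, and those highest or lowest in all groups 2805 to 3562 and 2997 to 3712. Leaving out wild type sufficient 3, wild type deficient 2 or clf deficient 3 also moved the 2-fold lower count past 1.5 times, to 194, 220 and 219. The iron interaction gave 0 to 8 higher and 0 to 75 lower calls, and leaving out any 1 of the 12 libraries moved the lower count by over 1.5 times, to 0 without wild type sufficient 1 or clf sufficient 2. The clf interaction gave 20 to 109 higher and 131 to 355 lower. Its lower count moved most without wild type sufficient 1 (135), clf sufficient 2 (131), clf deficient 1 (157) and clf deficient 2 (148), and its higher count moved past 1.5 times for all libraries but wild type sufficient 2 and wild type deficient 3. The iron effect gave 788 to 1606 higher and 800 to 1466 lower, with 788, 814 and 883 higher without clf deficient 1, clf deficient 2 and wild type deficient 3. The clf effect gave 1075 to 1625 higher and 574 to 1111 lower, with 574, 584 and 603 lower without clf deficient 2, clf sufficient 2 and clf deficient 1. Leaving out a chosen library leaves an arm of its interaction to 1 library, assumed to vary like the rest.

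The labels number replicates alike in each group, and the numbers lined up in part. Of 18 correlations between same-numbered samples 12 were over 0.1, from -0.63 to 0.64. Those among wild type sufficient, clf sufficient and clf deficient were all positive, at 0.18 to 0.64. The negative ones, at -0.63 to -0.32, all involved wild type deficient 2 or 3. The chosen library is number 2 in wild type on deficient iron and number 3 in the other groups. Whether the numbers stand for shared batches was not tested. With the replicate block, the iron interaction called 26 lower genes and the clf interaction 25 higher and 90 lower, while 893 and 124 genes stood apart 2-fold. The iron and clf effects with the block stayed within 1.5 times. For the clock genes, the day-length genes and the genes named over all genes, single values were followed. A value stayed if it moved by less than the SD of the gene's own 4 group differences. By this wide rule 941 values of the difference between the 4 and the 8 stayed and 3 moved. PRR9 and AT5G52660 stayed while changing sign, and BOA stayed while ranging from 1.66 to 3.45. The other list genes were followed as counts only. Of 352 interaction values 264 stayed called and 88 did not. Depth limits genes under about 1 CPM, such as ELF4 and FKF1 in the 8.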
